A study of Mus musculus with 16 samples.

Results

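The genes of the major histocompatibility complex (MHC, called H2 in the mouse) and of the interferon response were followed in spinal cord RNA of spastic, control and B6C3Fe mice. Members were the probe sets whose annotated symbol begins with H2-, Ifi or Irf and a digit, or is B2m, Psmb8, Psmb9, Psmb10, Tap1, Tap2, Tapbp or Isg15. There were 90 such probe sets of 12488 on the array. Of these, 79 were annotated to 1 gene, which gave 62 different symbols, and 11 to several genes, mostly class I genes that share sequence. A pair of symbols was matched by name more than by role: H2-Ke6 is a steroid dehydrogenase named for the region it lies in, and Irf2bp1 is a cofactor of an interferon regulatory factor.

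Class I molecules carry a heavy chain, encoded by H2-K1, H2-D1 and a large family of related genes, and the invariant light chain beta-2 microglobulin, encoded by B2m. They present peptides that proteasomes cut in the cytosol, that the Tap1 and Tap2 pump carries into the endoplasmic reticulum and that tapasin (Tapbp) helps to load. Class II molecules are made mainly by antigen-presenting cells, which in the spinal cord are chiefly microglia and macrophages of the borders and vessels. Interferons induce most of these genes through the STAT and IRF transcription factors, which bind the ISRE and GAS motifs of target promoters.

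By their titles, 8 arrays came from control mice, at 9 months (2 female, 2 male arrays) and 12 months (2 female, 2 male). A further 6 came from spastic mice, which have a recessive mutation of Glrb, the beta subunit of the glycine receptor, and 2 from B6C3Fe mice of 1 month titled male. The spastic arrays were titled Spa1 and Spa2 (2 months, female), Spa-sev (3 months, male), Spa3+ (3 months or more, male) and Spa-M (6 months, female, 2 arrays); the meaning of sev and M was not interpreted. Arrays sharing a title up to its letter (a or b) were averaged into 1 sample, giving 4 control, 5 spastic and 1 B6C3Fe samples. The labels used here give no strain, genotype or H2 haplotype for the control and spastic mice, and they do not say whether arrays or samples are separate animals, so the p-values reflect the spread between these samples alone, which may be technical. B6C3Fe is a hybrid of C57BL/6 and C3H stock, strains with different H2 haplotypes. By title every spastic sample was younger than every control (for Spa3+ the title gives only a lower bound), so age and group cannot be told apart in that comparison.

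The median intensity of an array was 289 to 383.6, and 14.7% to 24.1% of its values lay at the floor of 60.86 (5.93 on the log2 scale) to which lower values were set. Glrb separated the groups, with 9.92 to 11.11 on the log2 scale on spastic arrays, 12.70 to 13.30 on control arrays and 12.92 to 12.98 on B6C3Fe arrays. Both spastic arrays titled male went against their titled sex: Xist, an RNA of female cells, was at 10.37 and 10.54, and the Y-linked Eif2s3y was at the floor. The called differences are therefore also given without Spa-sev and Spa3+. The log2 ratio of the 3' to the 5' control probe sets for Pcx, a measure that rises with RNA degradation, was 1.53 to 2.02 in control samples, 2.00 to 2.98 in spastic samples and 1.78 in the B6C3Fe sample. Precision is limited by the number of arrays. In whole cord, fewer cells of a type and less RNA per cell cannot be told apart.

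Promoter windows of RefSeq (GRCm38.p6, 250 bases before to 50 bases after the start of the gene) were at hand for 48 of the 62 genes. An ISRE core, spelled GAAANNGAAA on either strand, lay in the windows of 8 of these 48 genes (16.7%), against 3.99% of 27025 genes in all. The 8 genes were B2m, Ifi207, Ifih1, Ifit1, Ifit3, Ifitm2, Ifitm3 and Isg15. The GAS spelling TTCNNNGAA lay in 11 of 48 (22.9%), against 9.55% of all genes. The windows of Tap1 and Psmb9, which are divergent neighbours, share 275 of their 300 bases. Below are 120 bases (positions -170 to -51 from the start) for B2m and Ifit3, the members that were lower in spastic cords, for Isg15, the interferon gene with most matches, and for the classical heavy chain genes H2-K1 and H2-D1, the partners of B2m. Capitals mark the ISRE spelling or its reverse complement.

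B2m, chr2:122147517-122147636, plus strand: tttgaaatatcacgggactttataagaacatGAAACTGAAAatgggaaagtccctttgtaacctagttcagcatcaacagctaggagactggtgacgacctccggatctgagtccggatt
Ifit3, chr19:34583359-34583478, plus strand: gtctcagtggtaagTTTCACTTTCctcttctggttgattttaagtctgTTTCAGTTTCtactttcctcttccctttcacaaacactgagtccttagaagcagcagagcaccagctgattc
Isg15, chr4:156200869-156200988, minus strand: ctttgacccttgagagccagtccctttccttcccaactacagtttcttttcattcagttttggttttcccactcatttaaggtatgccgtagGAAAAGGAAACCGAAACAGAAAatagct
H2-K1, chr17:34000384-34000503, minus strand: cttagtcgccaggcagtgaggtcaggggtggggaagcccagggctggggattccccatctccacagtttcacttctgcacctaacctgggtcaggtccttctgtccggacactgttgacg
H2-D1, chr17:35262924-35263043, plus strand: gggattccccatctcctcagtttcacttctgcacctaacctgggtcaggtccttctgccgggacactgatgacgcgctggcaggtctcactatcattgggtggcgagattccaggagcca

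The ISRE spelling occurs 1 time in the stretch of B2m, 2 times in that of Ifit3 and 3 times, overlapping, in that of Isg15. It occurs 0 times in those of H2-K1 and H2-D1, which says only that these letters are not in the windows.

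Tests were run on probe sets with a mean log2 value, over all arrays, above the 40th percentile of such means (7.62). Of the 90 members 47 passed and 43 did not. Of the 43, 4 were at the floor on all 16 arrays, 24 on at least 8 of the 16 and 8 on none. Differences were tested with limma across all 7453 probe sets above the filter, with a call at an adjusted p under 0.05 (Benjamini-Hochberg, 2-sided), and are log2 differences that are understated near the floor. Levels of different probe sets are not compared with each other.

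The comparison of spastic with control cords holds the mutant state together with a younger titled age and mostly higher Pcx ratios. It cannot tell these apart. Most MHC and interferon members did not pass the test: B2m and Ifit3 fell, Ifitm10 and Psmb10 rose, and 43 of the 47 tested members were not called. The 4 calls are 8.51% of the tested members, where 19.3% of all tested probe sets were called. By direction, 2 members were higher (8.61% of all tested probe sets were) and 2 were lower (10.7% of all). The median difference was -0.12 over the tested members and -0.03 over all tested probe sets, and the median size of a difference was 0.18 and 0.24. The spastic and control samples did not overlap for 2 of 47 members (4.26%), Ifit3 and Ifitm10, and for 19.4% of all tested probe sets.

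**Figure D1:**
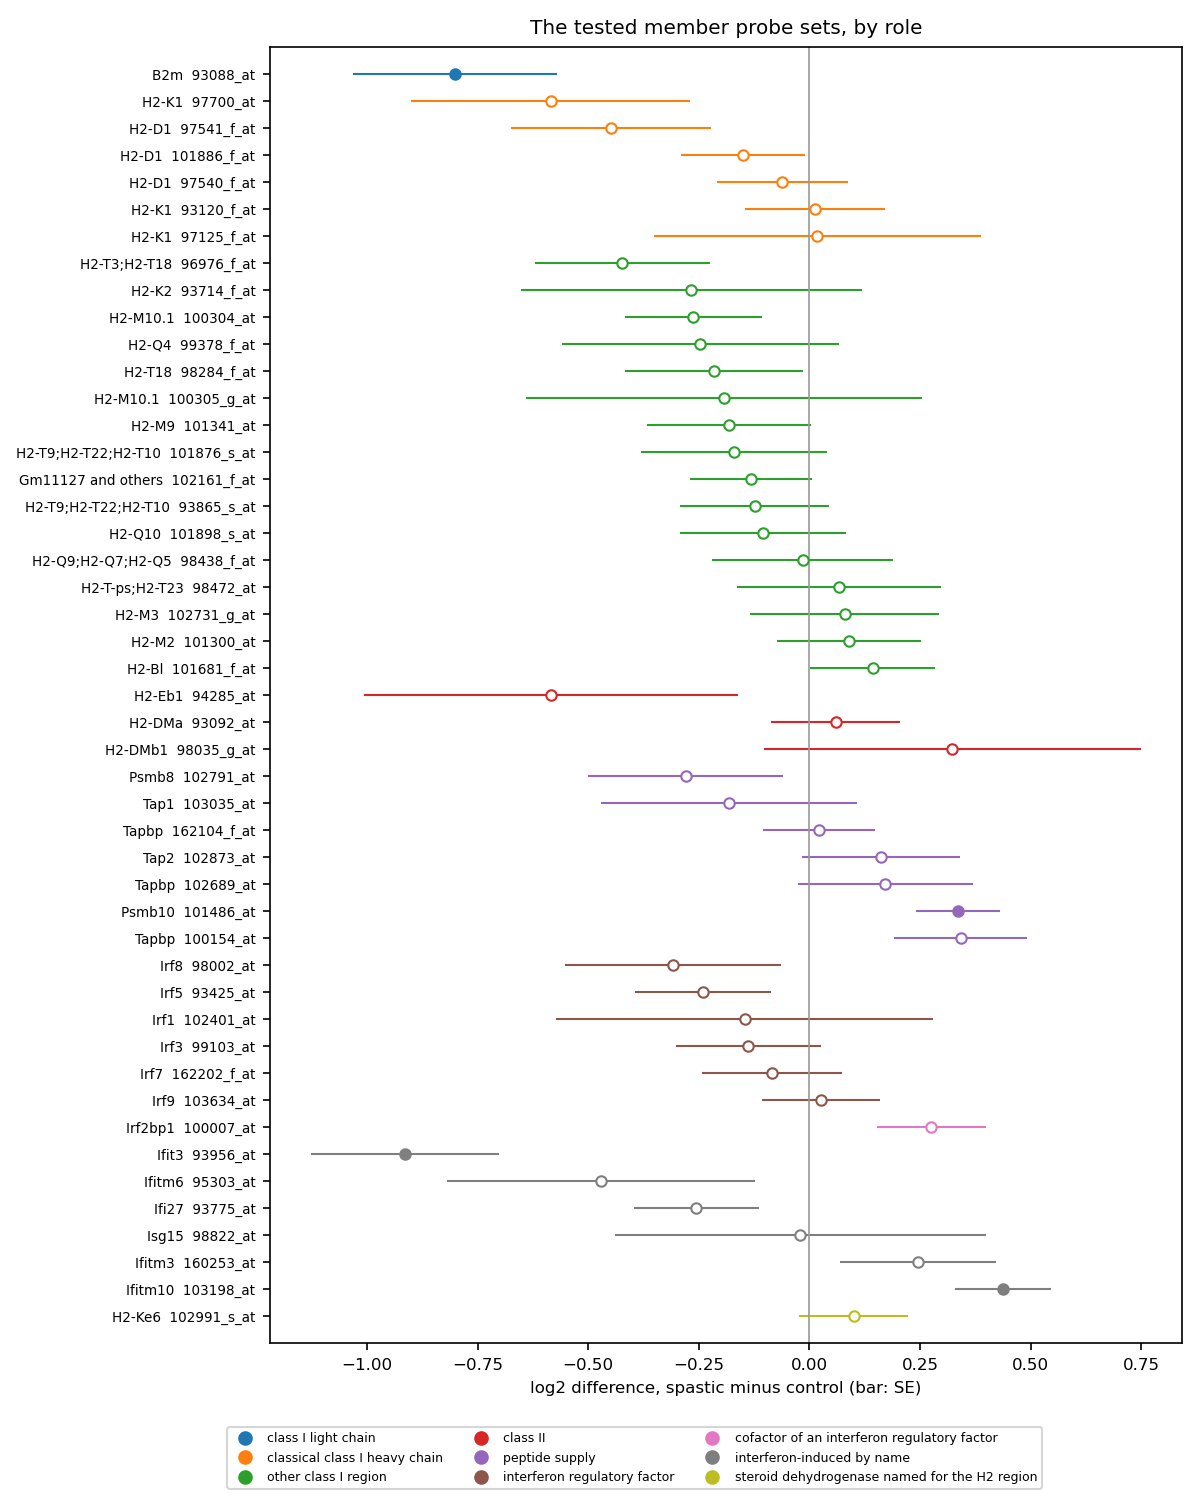
Log2 difference of spastic minus control for the 47 tested member probe sets, ordered by role (colour); bars are standard errors from limma and filled circles are members with an adjusted p under 0.05. The 4 filled circles are B2m and Ifit3 on the left and Psmb10 and Ifitm10 on the right, and most other members lie within 0.5 of 0.

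B2m, the light chain on which class I molecules depend to reach the cell surface, was at 11.90 and 11.88 in the 9-month female and male control samples and at 11.37 and 12.20 in the 12-month ones. In spastic cords it was 10.54 in Spa1, 11.49 in Spa2, 10.80 in Spa-sev, 10.75 in Spa3+ and 11.61 in Spa-M, and 10.80 in the B6C3Fe sample. Spa1, Spa-sev and Spa3+ lay below every control, while Spa2 and Spa-M lay above the 12-month female control, so the groups overlapped. The means were 11.84 ± 0.345 (SD, n = 4) and 11.04 ± 0.48 (SD, n = 5), so B2m fell 1.74-fold (log2 difference -0.80, SE 0.23, adjusted p = 0.0304 by limma). Without Spa-sev and Spa3+ the difference was -0.63 (adjusted p = 0.148), and among samples titled female alone it was -0.42 (adjusted p = 0.464). The call was also lost when any 1 of 6 samples was left out, the 12-month male, 9-month female and 9-month male controls, Spa1, Spa-sev or Spa3+ (adjusted p 0.0633 to 0.0886). With only letter a arrays the difference was -0.84 (adjusted p = 0.0503), with the Pcx ratio in the model it was -0.77 (adjusted p = 0.29), and with B6C3Fe counted as a control and a log2 age term it was -0.24 (adjusted p = 0.525).

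The classical heavy chain genes, whose products pair with B2m, had 6 probe sets, all tested, and none was called in either direction; their median difference was -0.11 and their smallest adjusted p was 0.191 by limma. For H2-K1, probe set 93120_f_at was at 11.29, 10.88, 11.29 and 11.12 in the control samples (9-month female and male, then 12-month female and male). In spastic cords the same probe set was at 10.84 in Spa1, 11.53 in Spa2, 10.81 in Spa-sev, 11.36 in Spa3+ and 11.24 in Spa-M. The groups overlapped over nearly their whole range, and the difference was 0.01 (SE 0.16, adjusted p = 0.965 by limma). H2-K1 probe set 97125_f_at gave 0.02 (SE 0.37) and 97700_at gave -0.59 (SE 0.32, adjusted p = 0.221 by limma), so the 3 probe sets of this gene did not give 1 value.

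For H2-D1, probe set 101886_f_at ran from 10.66 to 11.12 in control samples and from 10.43 to 11.02 in spastic samples, a difference of -0.15 (SE 0.14, adjusted p = 0.492 by limma). The others gave -0.06 (97540_f_at) and -0.45 (97541_f_at, SE 0.23, adjusted p = 0.191 by limma). All 3 probe sets carry the suffix f, which the maker gives to sets that can bind several members of a gene family. Of the 34 class I heavy chain members, 20 have the suffix f or s, so their values cannot be assigned to 1 gene with certainty.

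The other class I genes of the region (the Q, T and M genes and their pseudogenes, most of them of restricted or unknown function) had 28 probe sets, of which 16 were tested. None was called in either direction, their median difference was -0.15, and they ran from -0.42 for the set shared by H2-T3 and H2-T18 (96976_f_at, smallest adjusted p of the group, 0.158 by limma) to 0.14 for H2-Bl. H2-Q4 spread widely among spastic cords, with 7.52 in Spa1 and 9.28 in Spa2, beside 8.80 to 9.30 in controls. H2-K2 was at 8.01 in Spa-sev and at 10.32 in Spa3+, and its 2 arrays of Spa-M were at 10.64 and 8.02. For H2-K2 the gap between these arrays of 1 title, 2.62, was larger than the range over all samples, 2.31.

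Peptide supply, the genes that cut, carry and load peptides for class I, had 9 probe sets, of which 7 were tested: 1 was higher and 0 were lower, with a median difference of 0.16. Psmb10, a catalytic subunit of the immunoproteasome, was at 10.51 and 10.48 in the 9-month female and male controls and at 10.68 and 10.50 in the 12-month ones. In spastic cords it was 10.66 in Spa1, 10.91 in Spa2, 10.91 in Spa-sev, 10.96 in Spa3+ and 10.95 in Spa-M, and in the B6C3Fe sample 10.82. All spastic samples but Spa1 lay above every control, and Spa1 lay just under the 12-month female control. The difference was 0.34 (SE 0.10, 1.26-fold, adjusted p = 0.0288 by limma). It was 0.30 without Spa-sev and Spa3+ (adjusted p = 0.107), and leaving out any 1 of the 12-month male, 9-month female or 9-month male controls, Spa-M, Spa-sev or Spa3+ gave an adjusted p of 0.0543 to 0.078. The call was also lost with the Pcx ratio in the model (0.27, adjusted p = 0.346), in samples titled female alone (0.24, adjusted p = 0.359), with only letter a arrays (0.26, adjusted p = 0.127), and with B6C3Fe counted as a control and a log2 age term (0.22, adjusted p = 0.223).

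Its partner subunits were not called or not tested. Psmb8 ran from 8.27 to 8.75 in control samples and was at 7.89 in Spa1, 8.70 in Spa2, 7.91 in Spa-sev, 7.93 in Spa3+ and 8.59 in Spa-M, a difference of -0.28 (SE 0.22, adjusted p = 0.408 by limma). Psmb9 was under the filter, with 5.93 to 6.65 in controls and 5.93 to 6.77 in spastic samples. The transporter genes were not called either: Tap1 (103035_at) had a difference of -0.18 (SE 0.29, adjusted p = 0.701 by limma) and Tap2 one of 0.16 (SE 0.18, adjusted p = 0.566). The 3 probe sets of Tapbp gave 0.34 (100154_at, adjusted p = 0.133 by limma), 0.17 and 0.02. With B6C3Fe counted as a control and a log2 age term, Tap2 and Tapbp 100154_at were higher instead, by 0.70 (adjusted p = 0.0483 by limma) and 0.59 (adjusted p = 0.0456), which is 1 of the alternatives where a member not called otherwise passed the test.

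**Figure D2:**
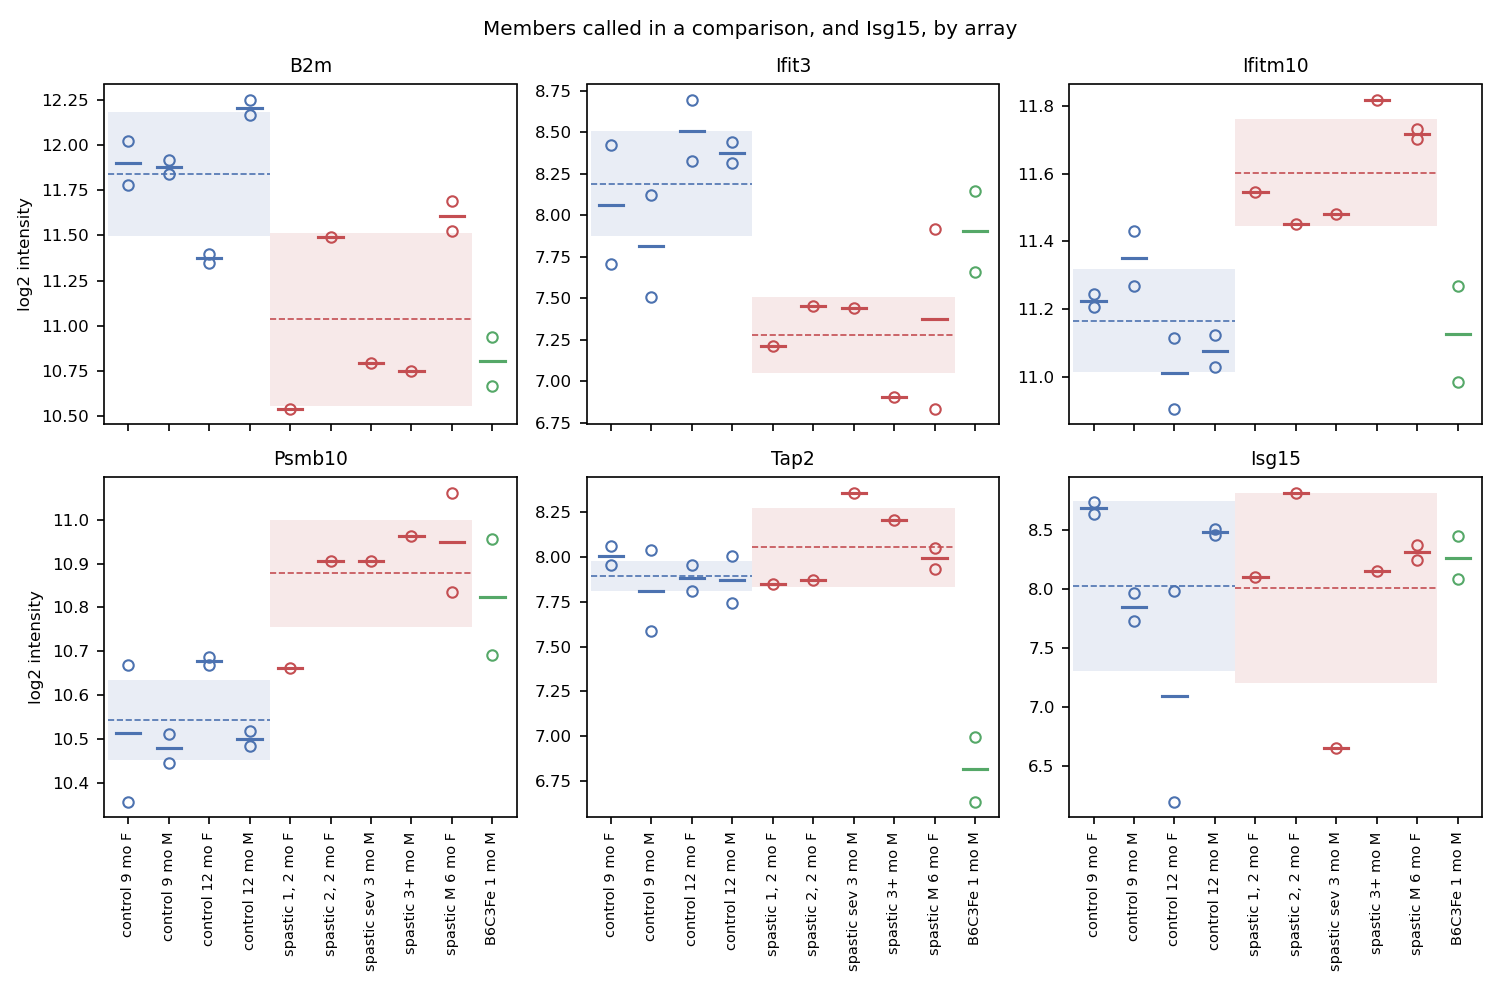
Log2 intensity of B2m, Ifit3, Ifitm10, Psmb10, Tap2 and Isg15 on each array (circles), with the mean of each sample (short bars) and the mean ± SD over the samples of a group (dashed line and shading); the vertical scales differ and do not start at 0. Ifit3 and Ifitm10 separate the 4 control from the 5 spastic samples, B2m and Psmb10 overlap, Tap2 is lowest in the B6C3Fe sample at 6.81, and Isg15 spreads from 6.66 to 8.81 in spastic cords.

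Genes named as interferon-induced had 21 probe sets, of which 6 were tested: 1 rose, 1 fell and 4 were not called. Ifit3, a member of the IFIT family of antiviral proteins, was at 8.06 and 7.81 in the 9-month female and male controls and at 8.51 and 8.38 in the 12-month ones. In spastic cords it was 7.21 in Spa1, 7.46 in Spa2, 7.44 in Spa-sev, 6.91 in Spa3+ and 7.38 in Spa-M, and in the B6C3Fe sample 7.90. Every spastic sample lay below every control, and the B6C3Fe sample lay among the controls. Single arrays overlapped, since the 2 arrays of Spa-M were at 6.83 and 7.92 and the lowest control array at 7.51. The difference was -0.91 (SE 0.21, 1.88-fold lower, adjusted p = 0.0127 by limma), and it passed the test with each of the 10 samples left out in turn and without both Spa-sev and Spa3+ (-0.84, adjusted p = 0.0452). It did not pass with only samples titled female (-0.94, adjusted p = 0.117), with the Pcx ratio in the model (-0.67, adjusted p = 0.29) or with B6C3Fe counted as a control and a log2 age term (-0.75, adjusted p = 0.0575).

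Its relatives lay under the filter. Ifit1 was at the floor on 4 of 8 control and 5 of 6 spastic arrays. Ifit2 was at 6.78 to 7.498 in control samples and 5.93 to 6.96 in spastic samples, which overlap. Neither was tested.

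Ifitm10 belongs by name to the family of interferon-induced transmembrane proteins that block the entry of viruses; induction of this member by interferon is not assumed here. It was at 11.22 and 11.35 in the 9-month female and male controls and at 11.01 and 11.08 in the 12-month ones. In spastic cords it was 11.55 in Spa1, 11.45 in Spa2, 11.48 in Spa-sev, 11.82 in Spa3+ and 11.72 in Spa-M, and in the B6C3Fe sample 11.13. Every spastic sample lay above every other sample. The difference was 0.44 (SE 0.11, 1.36-fold, adjusted p = 0.0172 by limma). It was 0.41 without Spa-sev and Spa3+ (adjusted p = 0.0497), and the call was lost without the 12-month female control (0.39, adjusted p = 0.0575), with only samples titled female (0.45, adjusted p = 0.117) and with the Pcx ratio in the model (0.24, adjusted p = 0.429).

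Isg15, the ubiquitin-like modifier that is among the genes most strongly induced by type I interferon, was at 8.68 and 7.84 in the 9-month female and male controls and at 7.09 and 8.48 in the 12-month ones. In spastic cords it was 8.10 in Spa1, 8.81 in Spa2, 6.66 in Spa-sev, 8.15 in Spa3+ and 8.31 in Spa-M. Spa-sev was the lowest of all samples, the other 4 lay within the control range or just above it, and the difference was -0.02 (SE 0.42, adjusted p = 0.978 by limma). Ifitm3, a viral entry inhibitor, ran from 9.92 to 10.54 in controls and 10.10 to 10.84 in spastic cords, a difference of 0.24 (SE 0.18, adjusted p = 0.359 by limma). Of the 8 genes with an ISRE spelling in their window 4 passed the filter. These were B2m and Ifit3, which fell, and Ifitm3 and Isg15, which were not called. Over all tested probe sets 10.7% were lower and 8.61% higher. With 4 genes no share can be read from this, and a link of the motif to the differences was not tested. Ifih1, a sensor of viral RNA under the filter, was at 7.52 ± 0.40 (SD, n = 4) in controls and 7.51 ± 0.40 (SD, n = 5) in spastic cords.

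The interferon regulatory factors, which transmit and amplify the response, had 9 probe sets, of which 6 were tested and none was called; the median difference was -0.14 and the smallest adjusted p was 0.30 by limma. Irf9, a DNA-binding subunit of the complex that interferons activate, was at 9.24 ± 0.11 (SD, n = 4) in controls and 9.27 ± 0.20 (SD, n = 5) in spastic cords. Irf3 (99103_at), which starts interferon production, had a difference of -0.14 (SE 0.17). Irf1, which interferon gamma induces, was at 7.80 and 7.82 in the 9-month female and male controls and at 7.81 and 8.33 in the 12-month ones. In spastic cords Irf1 was 7.09 in Spa1, 8.51 in Spa2, 6.38 in Spa-sev, 8.67 in Spa3+ and 8.32 in Spa-M. These samples lay on both sides of the controls, with a difference of -0.15 (SE 0.43, adjusted p = 0.843 by limma).

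Irf7, the amplifier of the type I response and itself interferon-induced, had a pair of probe sets that disagreed. 162202_f_at had a difference of -0.09 (SE 0.16). 104669_at lay under the filter and was not tested, with 6.90 and 7.37 in the 9-month female and male controls, 7.49 and 6.66 in the 12-month ones, and 6.24, 6.08, 5.93, 5.93 and 6.07 in Spa1, Spa2, Spa-sev, Spa3+ and Spa-M. Every spastic sample of this set lay below every control, with 3 of the 6 spastic arrays and 1 of the 8 control arrays at the floor. Among the 43 members under the filter, 0 had every spastic sample above every control, against 0.745% of all 4969 probe sets under the filter. The reverse, every spastic sample below every control, held for 4 members (9.3%, against 5.53% of all). Beside Irf7 they were H2-M3 (102730_at), H2-Pa and a probe set shared by H2-Q9 and other class I genes (95773_at). For H2-Pa and 95773_at all spastic arrays were at the floor, and the lowest control sample of H2-Pa, at 5.9313, was hardly above it. In a fit with no filter, Irf7 and H2-M3 were called lower and B2m was not called (adjusted p = 0.106), with 10.2% of probe sets called.

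Class II had 13 probe sets, of which 3 were tested and none was called. H2-Eb1, the beta chain of the E molecule, was at 8.36 and 8.95 in the 9-month female and male controls and at 8.39 and 9.38 in the 12-month ones. In spastic cords it was 6.80 in Spa1, 9.36 in Spa2, 8.29 in Spa-sev, 7.85 in Spa3+ and 8.62 in Spa-M. Spa1 was lowest and Spa2 among the highest, and the difference was -0.59 (SE 0.42, adjusted p = 0.361 by limma). Arrays of 1 title differed by as much: those of the 12-month female control were at 7.02 and 9.77, and those of the 9-month female control at 7.53 and 9.20.

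The chains of the A molecule, H2-Aa and H2-Ab1, lay under the filter and, like H2-Eb1, were highest in Spa2 among the spastic samples. H2-Aa was at 6.42 and 6.85 in the 9-month female and male controls, 6.54 and 7.73 in the 12-month ones, and 5.97, 8.02, 5.93, 5.93 and 6.88 in Spa1, Spa2, Spa-sev, Spa3+ and Spa-M. H2-Ab1 was at 6.97 and 6.79, then 6.41 and 8.07 in the same controls, and at 6.78, 8.01, 5.93, 5.93 and 7.42 in the same spastic samples. The 12-month male control and Spa2 were highest for both, and Spa-sev and Spa3+ were at the floor for both. Both B6C3Fe arrays were also at the floor for H2-Aa. Arrays of 1 title disagreed here too. Those of the 9-month male control were at 7.64 and 6.07 for H2-Aa and at 7.65 and 5.93, the floor, for H2-Ab1. Cd74, the invariant chain that travels with class II, was at 9.34 to 9.96 in controls and at 9.71, 10.22, 9.002, 7.92 and 10.10 in the spastic samples in that order, again lowest in Spa3+. H2-DMb1, part of the catalyst that loads class II, was highest in Spa2 at 9.33 and at 7.03 to 8.20 in the other spastic samples. H2-DMa (93092_at), the other chain of that catalyst, had a difference of 0.06.

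**Figure D3:**
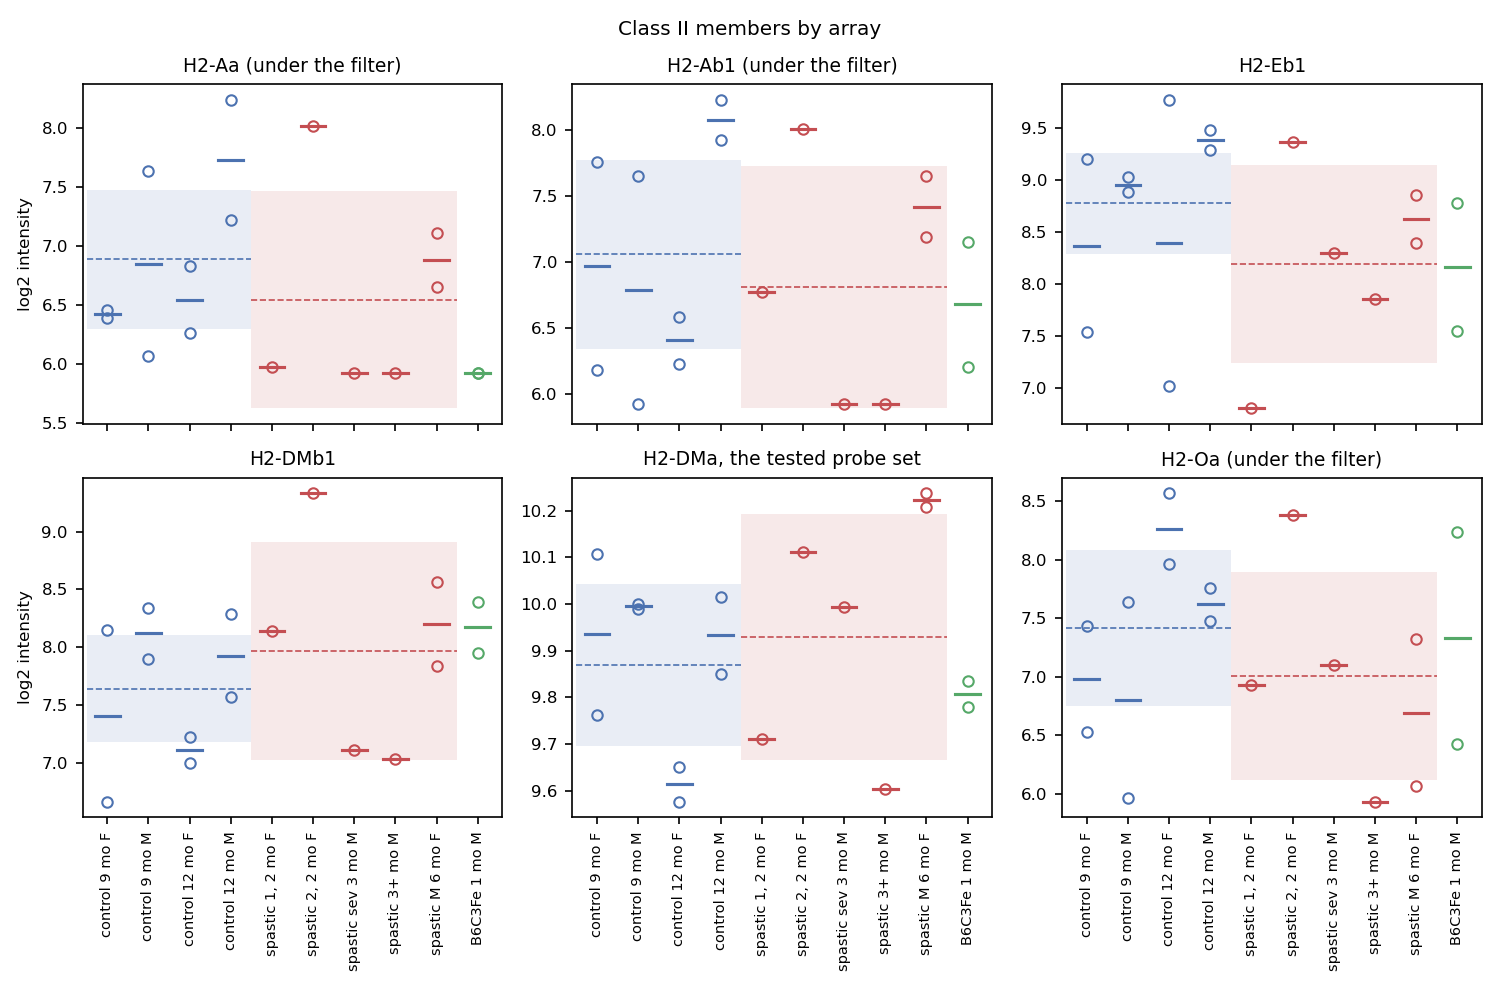
Log2 intensity of 6 class II members on each array (circles), with sample means (short bars) and group mean ± SD over samples (dashed line and shading); scales differ between panels and do not start at 0, and 5.93 is the floor. Spa2 is the highest spastic sample for H2-Aa, H2-Ab1, H2-Eb1, H2-DMb1 and H2-Oa, and Spa-sev and Spa3+ are at the floor for H2-Aa and H2-Ab1.

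H2-Ea, the alpha chain of the E molecule, is not expressed in strains of haplotype b such as C57BL/6, and is expressed in C3H. It was at the floor on 7 of 8 control arrays, on all 6 spastic arrays and on 1 of the 2 B6C3Fe arrays. The H2 haplotype of these mice is not in the labels, and its part in any H2 value was not tested.

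The spastic samples differed among themselves more for these genes than for the array as a whole. The median SD over the 5 spastic samples was 0.319 for the tested members, 0.358 for the class I heavy chain members and 0.223 for all tested probe sets. Over the 4 controls it was 0.233, 0.245 and 0.199. Each control sample was the mean of 2 arrays and each spastic sample but Spa-M was 1 array. The SDs of the 2 groups are therefore not on equal terms. Without Spa-sev and Spa3+ the spastic values were 0.307, 0.388 and 0.187. Spa1 and Spa2, both titled female and 2 months, stood at opposite ends. Spa2 was above Spa1 for 42 of 47 members (89.4%), for 21 of 22 class I heavy chain members (95.5%) and for 53.6% of all tested probe sets. The median of Spa2 minus Spa1 was 0.52 for members, 0.62 for class I heavy chain members and 0.03 for all.

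Spa2 was the highest of the 5 spastic samples for 26 members (55.3%, against 26% of all tested probe sets), and Spa1 the lowest for 20 (42.6%, against 17.9%). Tap1 was at 6.90 in Spa1 and 8.29 in Spa2, and H2-K1 97125_f_at at 7.17 and 8.56. The 5 members that were not higher in Spa2 were Irf7 162202_f_at, Ifi27, Ifitm10, H2-M10.1 100305_g_at and H2-Ke6. Spa1 and Spa2 are 1 array each, so the difference has no replicate check and was not tested. The counts are not counts of separate readings, since 20 of the 34 class I heavy chain members, and most of the tested ones, have the suffix f or s. Relative to the control mean, the median member was at -0.31 in Spa1 and 0.24 in Spa2, beside -0.12 in Spa-sev, -0.03 in Spa3+ and 0.08 in Spa-M.

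**Figure D4:**
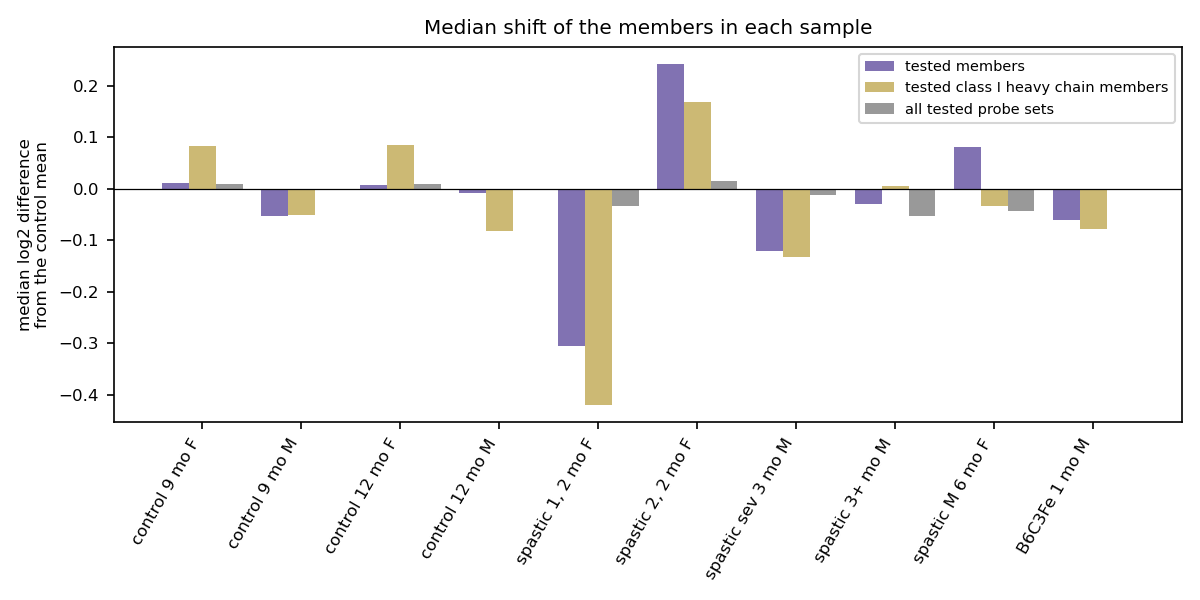
Median log2 difference from the mean of the 4 control samples in each sample, over the 47 tested members, over the 22 tested class I heavy chain members and over all 7453 tested probe sets. The members reach -0.31 in Spa1 and 0.24 in Spa2, while the median of all probe sets stays near 0 in every sample.

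Markers of cells that could carry these transcripts were read beside them. Of 12 tested probe sets of the microglial list, 0 were higher and 2 were lower in spastic cords, Cx3cr1 (-0.65) and Ctss (-0.56). Of all tested probe sets, 8.61% were higher and 10.7% lower. The median difference of the microglial list was -0.06. Its other tested probe sets were not called and went both ways, such as Cd68 (9.02 in spastic and 8.80 in control samples) and Tyrobp (9.15 and 9.79). The summed intensity of that list was 16634 to 19747 in control samples, 12232 in Spa3+, 15917 in Spa1, 16858 in Spa2, 15247 in Spa-sev and 19322 in Spa-M, and 16294 in the B6C3Fe sample. The dendritic cell and monocyte list, with 7 tested probe sets and none called, summed to 6890 to 11560 in controls and 4858 to 16471 in spastic samples, highest in Spa2. Within it S100a8, a protein of neutrophils and monocytes, was at 10.71 to 11.99 in controls. It was at 11.51 in Spa1, within the control range, and at 12.80 in Spa2, above it. In the other spastic samples it was at 8.88 to 9.89, below every control. S100a9 went the same way, with 10.14 to 11.44 in controls, 10.91 in Spa1 and 11.92 in Spa2. The part of these cells in the member values was not tested.

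T cell markers had 1 tested probe set of 8, and 3 were at the floor on every array; their sums were 636 to 905 in controls and 599 to 833 in spastic samples. B cell markers had 5 of 22 tested, NK cell markers 0 of 4, and none was called. Endothelial markers, whose cells express class I strongly, had 7 of 9 tested probe sets higher and 0 lower in spastic cords. The shares over all tested probe sets were 8.61% higher and 10.7% lower. The sum of the endothelial list was 3818 to 4370 in controls, 8057 to 10339 in spastic samples and 4384 in the B6C3Fe sample. The part of endothelial cells in the values of B2m and the class I heavy chain members was not tested. The tissue was checked with 15 probe sets of spinal cord neurons and glia such as Gfap, Mbp and Snap25. All 15 passed the filter, with 1 higher and 4 lower in spastic cords. Their sum was 100912 to 138975 in controls and 103132 to 136998 in spastic samples, which hides shifts of single genes. Mean Syt1 was 9.55 in control and 6.68 in spastic samples, and mean Nefl was 12.50 and 11.39. The Aqp4 probe sets were at 12.02 and 10.49 and at 13.42 and 12.62, and Slc32a1 at 12.67 and 13.31. An equal make-up of the tissue in both groups is not shown by these values. Of the sex list 1 of 4 probe sets was tested and it was not called.

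Other genes of the interferon pathway, listed without the members (receptors, kinases, other induced genes), had 22 tested probe sets. Of these 2 were higher and 1 was lower, with a median difference of 0.00. Among all tested probe sets 8.61% were higher and 10.7% lower. Gbp3, an interferon-induced GTPase, fell by 0.79 (SE 0.20, adjusted p = 0.019 by limma). Ly6e rose by 0.56. Of the tested probe sets of Stat3, a transcription factor of cytokine receptors, 1 rose by 0.47 and the other was at 0.01 (adjusted p = 0.96 by limma). Other genes of antigen processing had 23 tested probe sets, with 4 higher and 3 lower and a median of -0.09, beside the same shares of all. The constitutive proteasome subunit Psmb6 (0.64) and the proteasome activator Psme3 (0.59), each with 1 tested probe set, were higher. For another such subunit, Psmb5, 1 probe set was higher (0.36) and the other was at -0.13 (adjusted p = 0.661 by limma). For the protease Ctsb 1 of 3 was higher (0.49), with the others at 0.02 and -0.19. Psmb7, a further constitutive subunit, was at 0.09 (adjusted p = 0.546 by limma). The class I-like iron regulator Hfe (-0.60) and the lysosomal proteases Lgmn (-0.48) and Ctss (-0.56) were lower. Ctss is the same probe set that was counted in the microglial list.

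The B6C3Fe sample, assumed to vary like the other groups, was compared with each group; these comparisons share samples with the one above. Against spastic cords, 1 of 47 members was called (2.13%, beside 2.2% of all tested probe sets) and 7 had an unadjusted p under 0.05. Tap2, a chain of the peptide pump, was at 6.995 and 6.634 on the B6C3Fe arrays. It was at 7.85 in Spa1, 7.87 in Spa2, 8.36 in Spa-sev, 8.20 in Spa3+ and 7.99 in Spa-M, and at 7.81 to 8.01 in control samples. All samples of both other groups lay above both B6C3Fe arrays. Tap2 was 2.36-fold higher in spastic cords than in B6C3Fe (log2 difference 1.24, SE 0.29, adjusted p = 0.0498 by limma) and B6C3Fe minus control was -1.08 (SE 0.30, adjusted p = 0.108). The first call was just under the threshold and was lost in 8 of 9 fits with a sample left out (adjusted p 0.0542 to 0.0854) and without Spa-sev and Spa3+ (adjusted p = 0.111). With a floor at the 40th percentile it fell to 0.37.

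Against controls, 0 of 47 members were called by limma in B6C3Fe (0.644% of all tested probe sets were), and 7 had an unadjusted p under 0.05; 4 were called with every array as its own replicate. The largest difference was that of H2-D1 97541_f_at, at 7.66 and 6.77 on the B6C3Fe arrays and 8.11 to 9.22 in control samples (-1.51, SE 0.38, adjusted p = 0.0843 by limma). B2m differed by -1.04 (adjusted p = 0.214 by limma) and Psmb8 by -0.99 (adjusted p = 0.215), while H2-T18 98284_f_at was at 11.24 and 12.04 in B6C3Fe against 10.43 to 11.18 in controls (0.75, adjusted p = 0.305). The other probe sets of H2-D1 differed by -0.26 and -0.13. For B2m the B6C3Fe sample, at 10.80, lay below all controls and next to Spa-sev and Spa3+. The age and the stock of this 1 sample cannot be told apart, and the part of either was not tested.

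Among the controls, 12 minus 9 months gave 0 calls over all 7453 probe sets (0%) by limma, 395 at an unadjusted p under 0.05, and 0 of either kind among the 47 members; 8 probe sets and 0 members were called with every array as its own replicate. The median member difference was 0.01, and the smallest adjusted p of a member was 0.913. With 2 samples at each age, this comparison has low precision, and it says nothing of the ages of 1 to 6 months at which the other groups were taken.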

How the data were processed

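The deposited table holds linear intensity values that the authors had already scaled, since the mean intensity after trimming 2% at each end was 800.37 to 800.47 on every array; the software was not given in the sources used here. Values under the 20th percentile of all values (60.86) were set to it before taking log2 of the deposited intensities. The 66 control probe sets were left out, and 7453 of the others passed the filter on mean log2 value. Symbols came from GEO's platform annotation. Differences were fitted with limma 3.58.1 in R 4.3.3 (lmFit, eBayes with a trend) on 10 samples, with group as the only term and 1 shared estimate of spread. Titled sex was left out because 2 spastic arrays went against it, and every probe set was tested, not 1 a gene. Arrays of 1 title had a consensus correlation of 0.24, and no 2 arrays correlated above 0.9762. Members called in a comparison and a list of fixed genes were named; others are given by range. The members, gene lists and marker lists (interferon pathway, antigen processing, microglia, T, B and NK cells, dendritic cells and monocytes, endothelium, spinal cord, sex) were chosen with earlier results of these data known. The fit was tested on simulated data. Alternatives were other floors, filters, normalization, blocks and covariates, subsets of arrays, and leaving out each sample. Some items are not reported here.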

Additional observations from a re-analysis of the deposited data

Results flagged for a closer look

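The members called and the fixed genes were examined for a sample far from the others of its group; 62 groups of 4 or 5 samples were examined and 5 had one, where chance gives about 1 in 20. Psmb10 was at 10.678 in the 12-month female control, above the other controls at 10.479 to 10.513, and at 10.662 in Spa1, below the other spastic samples at 10.907 to 10.963. Irf1 was at 8.332 in the 12-month male control, above the other controls at 7.804 to 7.824. Ifit1 was at 6.135 in Spa-M and Irf3 162425_f_at at 6.563 in Spa-sev, where the other spastic samples were at the floor of 5.927. With all others at the floor, any higher value is flagged, so the rate of 1 in 20 does not hold for these groups.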

How the results depend on the processing

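For spastic minus control, with 4 members and 1436 probe sets called, the counts were 2 and 781 with only arrays of letter a, 0 and 47 with the Pcx ratio in the model, 2 and 857 without Spa-sev and Spa3+, 0 and 136 in samples titled female alone, and 3 and 777 when B6C3Fe was counted as a control with a log2 age term; with a sample left out they were 2 to 5 and 819 to 1472. Spastic minus B6C3Fe (1 member, 164 probe sets) gave 4 and 392 with no filter, 6 and 873 with every array as its own replicate, 2 and 432 with the title as a random block, 0 and 23 with only letter a, 0 and 22 with the Pcx ratio, 0 and 90 without Spa-sev and Spa3+, 94 probe sets without a trend, 0 members with either other floor, a filter at the 60th percentile, 1 probe set a gene or titled sex, and 0 to 1 and 84 to 206 with a sample left out. B6C3Fe minus control (0 and 48) gave 3 and 305 with no filter, 4 and 768 with every array, 3 and 378 with the random block, 78 probe sets with quantile normalization, 13 with letter a, 26 with titled sex, 110 with the Pcx ratio, and 0 and 20 to 91 with a sample left out. For 12 minus 9 months, 0 members were called in every fit, with 31 probe sets with no filter, 8 with every array, 2 with the random block, 3 with control samples only and 0 with a sample left out. The letters mark no known pairs; with the letter as a replicate block the counts were 5 members for spastic minus control, 4 and 700 for spastic minus B6C3Fe, 4 and 751 for B6C3Fe minus control, and 9 probe sets for age. No called member changed direction in any fit. The 19 fixed members that were not called changed sign in 63 of 515 fits. Why the counts moved was not tested. Values near the floor limit what can be said of the 43 members under the filter.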
